A study of Mus musculus with 36 samples.

Results

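The mRNAs of 10 genes of hepatic insulin signalling and FoxO control were followed in mouse liver: Insr, Irs1, Irs2, Pik3r1, Akt1, Akt2, Foxo1, Foxo3, Foxa2 and Trib1. They were chosen by symbol, and every probe other than a control whose gene name on the array equals a listed symbol was taken, which gave 20 probes of 56605 and 10 genes of 37325. All 10 genes were among the 24251 that were bright enough to be tested, and no value was missing on any of the 36 arrays. The livers came from male C57Bl/6J mice, and each array is labelled as its own sample. AAKO denotes mice that lack ATGL, the lipase that begins triglyceride breakdown, in white adipose tissue, and CTRL denotes their controls. The labels give neither the promoter that drives the deletion nor the floxed or Cre status of the controls, so the cells in which ATGL is missing are known only as far as that tissue name goes.

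Mice of each genotype were fed without restriction, deprived of food for 24 h, or fed with a dose of CL316243, which made 6 groups of 6 arrays. CL316243 is an agonist of the beta 3 adrenergic receptor, which stimulates fat breakdown in adipocytes. It was given by gavage at 3 mg/kg in carboxymethyl cellulose at Zeitgeber time 10, counted in hours from lights on, and livers of every group were taken at Zeitgeber time 16. A gavage is described for CL316243 only, and the labels place both fed groups in experiment 2 and the other 4 groups in experiment 1. In every comparison with fed mice, condition and experiment therefore cannot be told apart; genotype comparisons within a condition, and fasting against CL316243, lie within 1 experiment. The question the design poses is how the liver responds to fasting and to adipocyte lipolysis, and how that response differs when adipose tissue lacks the lipase.

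Insulin binds its receptor, which phosphorylates the substrates IRS1 and IRS2. These recruit PI3K, whose lipid product brings AKT to the membrane, and AKT phosphorylates FoxO factors, which then leave the nucleus. In the fasted liver, FoxO1 is nuclear and active, and Irs2 and Igfbp1 are among the genes it induces. None of these steps of phosphorylation is measured by an array, which reports mRNA only.

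To set the sequence of the Irs genes beside their values, the 250 bases upstream of the RefSeq start were searched for the insulin response sequence CAAAACA and the FoxO core GTAAACA, on both strands. RefSeq entries (GRCm38.p6) were found for 8 of the 10 genes, with 15 start sites, of which 3 held a match. The window of Irs1, on the minus strand at chr1:82291440-82291689, and that of Irs2, on the minus strand at chr8:11008930-11009179, are shown because these related adaptors moved in opposite directions on fasting. Capitals mark TGTTTTG, the reverse complement of CAAAACA.
Irs1: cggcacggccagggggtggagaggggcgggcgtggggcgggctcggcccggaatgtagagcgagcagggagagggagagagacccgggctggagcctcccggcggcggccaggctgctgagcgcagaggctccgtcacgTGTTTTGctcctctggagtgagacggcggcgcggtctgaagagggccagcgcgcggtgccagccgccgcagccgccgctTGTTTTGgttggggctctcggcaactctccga
Irs2: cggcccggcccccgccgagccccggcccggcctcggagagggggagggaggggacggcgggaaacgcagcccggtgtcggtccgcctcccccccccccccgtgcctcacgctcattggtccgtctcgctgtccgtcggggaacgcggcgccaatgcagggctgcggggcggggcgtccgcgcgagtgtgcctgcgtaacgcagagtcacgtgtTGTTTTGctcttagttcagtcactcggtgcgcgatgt
The match began 37 bases before the start in Irs2, and 111 and 32 bases before it in Irs1. The remaining match was TGTTTAC, the reverse complement of GTAAACA, 161 bases before 1 of the starts of Akt1. Of 32851 upstream windows, 5.56% held CAAAACA or TGTTTTG and 3.17% held GTAAACA or TGTTTAC. Each match is a description of letters, and binding was not measured.

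Some results turn on where in a transcript a probe lies, and these probe sequences from the array files carry them. Positions are those of the array files, on mm9. No transcript annotation of that build was used, so exon and UTR are not stated. Foxo3 lies on the minus strand of chromosome 10, so the first of its probes below, at chr10:41994961-41995020, is nearer the 5′ end than the next, at chr10:41916349-41916408. The Akt1 probe, on the minus strand of chromosome 12, spans 9267 bases of genome from 113900509 to 113909775 in its 60 bases and so crosses an intron; capitals mark the ATG that follows its first 3 bases and begins the AKT1 reading frame.
Foxo3, A_55_P2735425: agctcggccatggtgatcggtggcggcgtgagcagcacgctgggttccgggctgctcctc
Foxo3, A_55_P2506540: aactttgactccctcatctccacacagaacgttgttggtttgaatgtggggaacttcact
Akt1, A_52_P418014: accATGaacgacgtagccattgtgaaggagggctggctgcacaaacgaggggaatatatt

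Values below are log2 signals after subtracting the 75th percentile of each array, so a gene at 0 is as bright as that percentile. They compare arrays for 1 probe, and levels of different probes are not set against each other. Errors beside group means are SDs over 6 arrays and errors beside fold changes are standard errors. Changes were tested with limma over all 24251 genes, and called means a Benjamini-Hochberg adjusted p under 0.05. The number of probes well above background was 33130 to 37200 an array. On the leading principal component (41.9% of the variance) CTRL fasted arrays spread from 16.8 to 81.3, with replicate 2 nearest the AAKO fasted arrays, which lay between 103 and 111. Summed signals of 6 hepatocyte markers were 3357 to 3644 times the 75th percentile in AAKO fasted livers and 3437 to 3799 times in CTRL fasted livers. Between fasted genotypes 5 of these 6 markers were called (1 higher and 4 lower, median -0.17), where 49.3% of all genes were called. Neutrophil markers moved with genotype in the fasted state, and their values stand beside the FoxO results. Markers of other cells moved as well. Of 6 Kupffer cell markers, 4 were called lower with CL316243 than fed in CTRL and 5 in AAKO (12.8% and 15.7% of all genes). Between genotypes 0 of these 6 were called in any condition. Of 5 liver endothelium markers, 2 were called higher in AAKO than CTRL fasted and 2 with CL316243 (21.3% and 13.4% of all genes), and 0 lower. With CL316243 against feeding, 4 of these 5 were called lower in CTRL and 2 in AAKO (12.8% and 15.7% of all genes), and 0 higher. With fasting, 2 Kupffer cell markers were called lower in CTRL and 3 in AAKO (22.4% and 35.7% of all genes), and 0 higher. Of 5 cholangiocyte markers, fasting lowered 3 in each genotype and raised 0. In bulk liver, fewer cells of a type and less RNA per cell cannot be told apart.

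**Figure D1:**
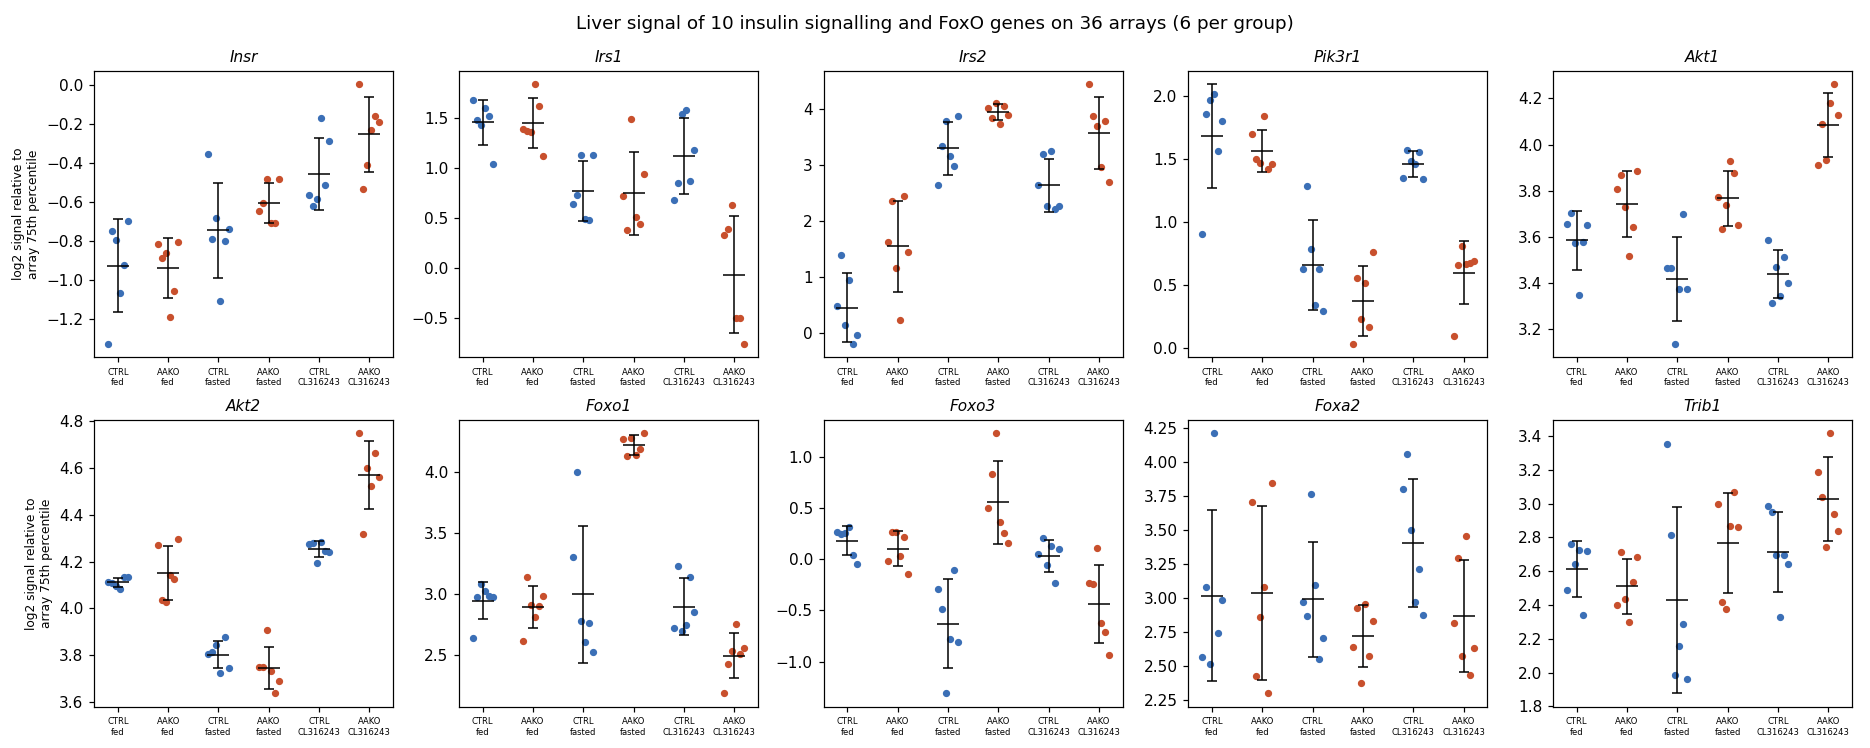
Log2 signal of the 10 genes on each of 36 arrays (points; blue CTRL, red AAKO), by group on the horizontal axis, with the mean and SD (bars, n = 6); each panel has its own vertical scale. Irs2 is lowest in the fed groups, and all 6 AAKO fasted arrays of Foxo1 lie between 4.13 and 4.32, above the other groups.

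Insr, the insulin receptor, spanned 0.69 across its group means and was called in 5 of 12 comparisons. Its group means lay between -0.94 ± 0.15 in AAKO fed and -0.25 ± 0.19 in AAKO CL316243 livers, and no 2 neighbours in the order of the 6 groups differed past the threshold. In CTRL mice the fed arrays ran from -1.33 through a median of -0.86 to -0.70, and the CL316243 arrays from -0.62 through -0.54 to -0.17. These ranges did not overlap, and the difference was 0.47 ± 0.11 (limma adjusted p = 0.0023). In AAKO mice Insr was 0.68 ± 0.11 higher after CL316243 than fed (limma adjusted p = 2.09e-05) and 0.33 ± 0.11 higher after fasting (limma adjusted p = 0.0105). After fasting it was lower than after CL316243, by 0.35 ± 0.11 in AAKO (limma adjusted p = 0.00872) and by 0.29 ± 0.11 in CTRL (limma adjusted p = 0.0413); the CTRL call was lost in the authors' value table (adjusted p = 0.0821), with dim probes kept (0.0668), without CTRL fasted replicate 2 (0.0652) and with only the groups compared in the fit (0.108). The AAKO call was lost in the authors' value table (-0.19, adjusted p = 0.0966), and the second Insr probe was called in neither genotype (-0.22 in AAKO and -0.27 in CTRL). Genotypes did not differ past the threshold in either state (0.14 ± 0.11 fasted and 0.20 ± 0.11 with CL316243), and the second Insr probe gave 0.24 and 0.20.

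Irs2, the receptor substrate whose mRNA is known to rise in the fasted liver, had the widest span of group means among the 10 genes, 3.48 on the log2 scale. In CTRL fed livers it ran from -0.19 through a median of 0.31 to 1.40, in CTRL fasted livers from 2.64 through 3.26 to 3.88, and in CTRL CL316243 livers from 2.21 through 2.46 to 3.24. Every fasted and every CL316243 array of CTRL mice lay above every fed array. The rise was 2.84 ± 0.31 with fasting, or 7.16-fold (limma adjusted p = 7.64e-09), and 2.18 ± 0.31 with CL316243, or 4.53-fold (limma adjusted p = 5.80e-06).

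AAKO livers showed the same separation. Irs2 ran from 0.24 through 1.54 to 2.44 when fed, from 3.73 through 3.95 to 4.11 when fasted and from 2.69 through 3.74 to 4.45 after CL316243. It rose by 2.39 ± 0.31 with fasting (limma adjusted p = 5.48e-08) and by 1.98 ± 0.31 with CL316243 (limma adjusted p = 1.03e-05). The responses of the genotypes were compared directly, and neither difference passed the threshold: -0.45 ± 0.44 for fasting and -0.20 ± 0.44 for CL316243. In both wash batches all 4 of these rises were called, between 1.51 and 2.96.

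Between genotypes, Irs2 means were higher in AAKO in each condition, by 1.09 ± 0.31 fed, 0.64 ± 0.31 fasted and 0.89 ± 0.31 with CL316243, with overlapping ranges each time. Only the CL316243 difference was called (limma adjusted p = 0.0346; fed 0.30, fasted 0.0887). That call did not survive leaving out AAKO CL316243 replicate 1, which read 4.45 (0.74, adjusted p = 0.0909), nor fitting slide as a factor (0.0639), nor testing without a filter on dim probes (0.0552), nor fitting only the groups compared (0.0572). The fasted difference passed with only the groups compared in the fit (adjusted p = 0.0138) and within wash batch 2 (0.88, adjusted p = 0.0242). Across all 36 arrays the genes whose values followed Irs2 most closely were Igfbp1, a secreted binding protein that FoxO1 induces (Pearson r = 0.91), Rad52, a DNA repair gene (0.91), and 5330406M23Rik (0.90); these r values describe arrays that share group structure.

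Irs1, the other main receptor substrate of the liver, fell with fasting in both genotypes. In CTRL mice it ran from 1.04 through a median of 1.50 to 1.68 fed, and from 0.48 through 0.69 to 1.14 fasted, with a slight overlap, and the fall was 0.69 ± 0.21 (limma adjusted p = 0.00821). In AAKO mice it fell by 0.70 ± 0.21 with fasting (limma adjusted p = 0.00433). Within wash batch 1 alone these falls missed the threshold (0.59 in CTRL, adjusted p = 0.219, and 0.67 in AAKO, adjusted p = 0.103), and within wash batch 2 both passed.

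CL316243 separated the genotypes at Irs1. After it, CTRL livers ran from 0.68 through 1.03 to 1.58 and AAKO livers from -0.76 through -0.08 to 0.63, without overlap. Irs1 was 1.21 ± 0.21 lower in AAKO on the log2 scale, or 2.31-fold (limma adjusted p = 6.64e-05), with -1.24 within wash batch 1 and -1.07 within wash batch 2 (adjusted p = 0.0503). Against fed mice it fell by 1.54 ± 0.21 in AAKO (limma adjusted p = 1.29e-06), while in CTRL the difference was -0.34 ± 0.21 (adjusted p = 0.27). The genotype by CL316243 interaction was -1.20 ± 0.30 (limma adjusted p = 0.00705). In AAKO mice Irs1 was 0.84 ± 0.21 higher fasted than after CL316243 (limma adjusted p = 0.00102), and the genotype difference differed between these states by 1.19 ± 0.30 (limma adjusted p = 0.00253). The closest followers of Irs1 over 36 arrays were Tmem158 (Pearson r = 0.92), C2cd4d (0.90) and Lsm10 (0.89).

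Pik3r1 encodes the p85 alpha regulatory subunit that ties PI3K to the IRS proteins. In CTRL livers it ran from 0.91 through a median of 1.82 to 2.01 fed, from 0.29 through 0.62 to 1.29 fasted, and from 1.34 through 1.47 to 1.57 after CL316243. In AAKO livers it ran from 1.42 through 1.48 to 1.84 fed, from 0.03 through 0.37 to 0.76 fasted, and from 0.10 through 0.67 to 0.81 after CL316243. The low groups were thus both fasted groups and AAKO with CL316243, and the order of the 6 means had 1 step past the threshold, between CTRL fasted and CTRL CL316243 (0.80 ± 0.16, limma adjusted p = 0.000149). Fasting lowered Pik3r1 by 1.03 ± 0.16 in CTRL (limma adjusted p = 3.35e-06) and by 1.19 ± 0.16 in AAKO (limma adjusted p = 8.99e-08).

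With CL316243, Pik3r1 was 0.88 ± 0.16 lower in AAKO than in CTRL, without overlap (limma adjusted p = 0.000105; adjusted p = 0.0016 within wash batch 1, and -0.65 with adjusted p = 0.175 within wash batch 2). Against fed mice it fell by 0.98 ± 0.16 in AAKO (limma adjusted p = 1.57e-05) and stood at -0.22 ± 0.16 in CTRL (adjusted p = 0.34). The interaction was -0.76 ± 0.23 (limma adjusted p = 0.0249), and leaving out CTRL fed replicate 1, which read 0.91, moved it to -0.60 (adjusted p = 0.0533). Fasted, the genotypes differed by -0.28 ± 0.16 (adjusted p = 0.14). The genotype difference differed between fasting and CL316243 by 0.59 ± 0.23 (limma adjusted p = 0.0421), a call lost without AAKO CL316243 replicate 1 (0.49, adjusted p = 0.0846) and without the filter on dim probes (0.067). Its closest followers were Ak4 (Pearson r = 0.85), Phtf2 (0.84) and Fam102a (0.83).

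Akt1 and Akt2 encode the kinases that carry the signal from PI3K to FoxO, and Akt2 is known as the main form of insulin action in liver. Akt2 was even within groups: CTRL fed arrays ran from 4.08 through 4.11 to 4.13 and CTRL fasted arrays from 3.73 through 3.81 to 3.88. Fasting lowered it by 0.31 ± 0.06 in CTRL (limma adjusted p = 6.44e-05) and by 0.41 ± 0.06 in AAKO (limma adjusted p = 3.96e-07), without overlap in either. The other Akt2 probes fell likewise in CTRL (-0.35 and -0.31, both called) but gave -0.09 and -0.14 in AAKO, neither called. After CL316243, Akt2 ran from 4.19 through 4.26 to 4.28 in CTRL and from 4.32 through 4.58 to 4.75 in AAKO. The genotype difference was 0.32 ± 0.06, or 1.24-fold (limma adjusted p = 0.000147).

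Akt2 rose by 0.42 ± 0.06 with CL316243 in AAKO (limma adjusted p = 1.98e-06), and in CTRL the difference was 0.14 ± 0.06 (adjusted p = 0.0811), which passed with quantile normalization (0.21, adjusted p = 0.0135). The interaction of 0.28 ± 0.08 (limma adjusted p = 0.0269) missed the threshold with normexp correction (0.057), quantile normalization (0.069), the authors' table (0.122), no filter (0.0564), the mean of the 3 probes (0.0872) and without AAKO CL316243 replicate 1 (0.0507). After fasting, Akt2 was lower than after CL316243 by 0.45 ± 0.06 in CTRL (limma adjusted p = 3.10e-07) and by 0.82 ± 0.06 in AAKO (limma adjusted p = 2.68e-13); at the other probes the AAKO differences were -0.40 and -0.38, both called, and the CTRL differences -0.35, called, and -0.24, not called. All 3 Akt2 probes gave a genotype difference of 0.32 to 0.38 with CL316243, each called over the 36550 probes tested. In the fasted state they disagreed: the brightest gave -0.06, and the others 0.27 and 0.24.

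Akt1 also had 3 probes, and they did not move together. At the brightest, CTRL CL316243 livers ran from 3.31 through a median of 3.43 to 3.59 and AAKO CL316243 livers from 3.91 through 4.11 to 4.26. The ranges did not overlap, and AAKO was 0.66 ± 0.08 higher (limma adjusted p = 1.67e-07). Fasted, AAKO was 0.35 ± 0.08 higher (limma adjusted p = 0.000361), with overlap. Probe A_66_P107415 gave genotype differences of -0.03 in both states, and within arrays its difference from the brightest probe was unequal between genotypes by 0.69 with CL316243 (exact permutation test, two-sided, p = 0.0022, the smallest that 6 against 6 arrays can give; Benjamini-Hochberg adjusted p = 0.013 over 30 such tests). Probe A_52_P418014 averaged -2.54 in AAKO and in CTRL fasted livers. With CL316243 it averaged -1.04 in AAKO and -1.27 in CTRL, and fed, -2.07 in AAKO and -2.45 in CTRL. The higher Akt1 signal of AAKO than CTRL in fasted livers was thus seen at the brightest probe only. Fasting against feeding in AAKO gave 0.03 ± 0.08 at that probe, which was not called. With the mean of the 3 probes the fasted call was lost (0.11, adjusted p = 0.28).

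The start-codon probe of Akt1 followed CL316243 in both genotypes. It ran from -2.91 through a median of -2.44 to -2.04 in CTRL fed livers and from -1.68 through -1.37 to -0.57 in CTRL CL316243 livers. Every CL316243 array lay above every fed array, and the rise was 1.19 ± 0.17 in CTRL (limma adjusted p = 6.46e-06 over probes) and 1.02 ± 0.17 in AAKO (limma adjusted p = 2.53e-05). At the brightest probe the same CTRL comparison gave -0.15 ± 0.08 (adjusted p = 0.18), and the AAKO comparison 0.36 ± 0.08 (limma adjusted p = 0.00058). Which transcripts each probe detects is not known from the files.

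**Figure D2:**
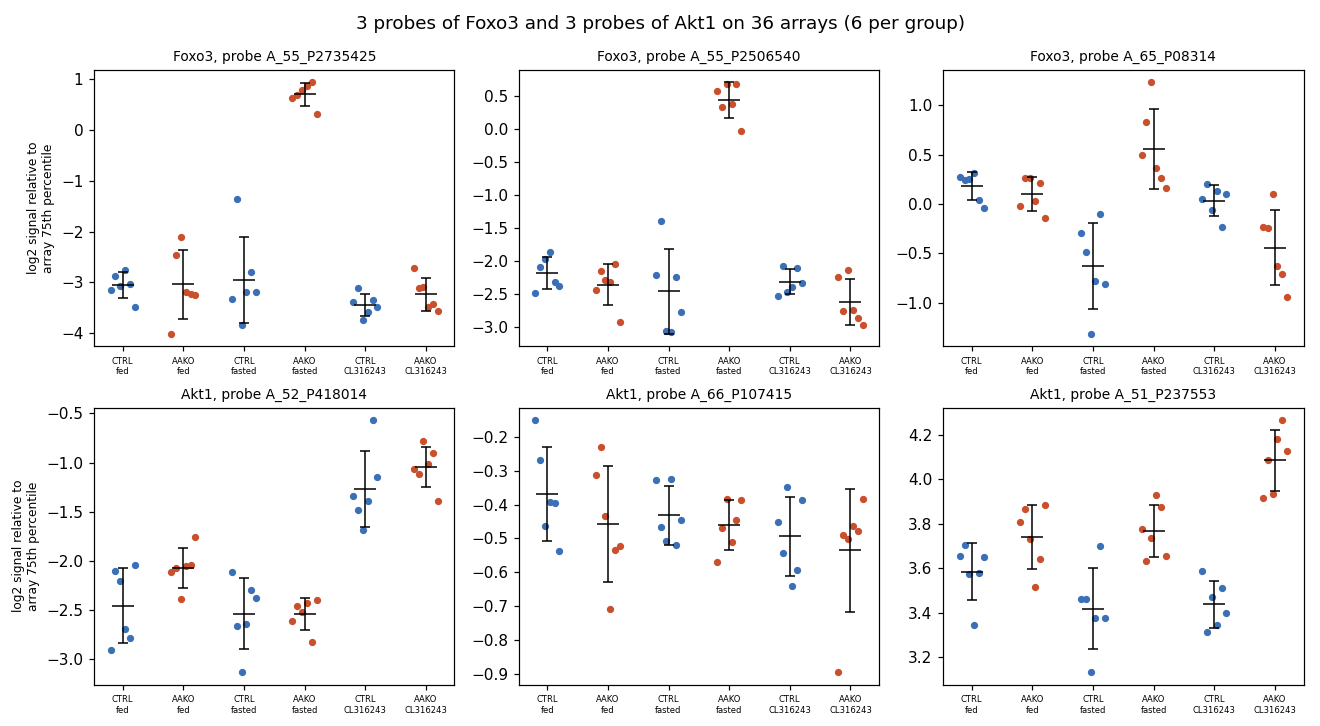
Log2 signal of the 3 Foxo3 probes (top) and the 3 Akt1 probes (bottom) on 36 arrays (points; blue CTRL, red AAKO), with mean and SD (bars, n = 6); each panel has its own vertical scale. Both Foxo3 probes shown by sequence are high in the AAKO fasted arrays alone, and Akt1 probe A_52_P418014 is high in both CL316243 groups.

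Foxo1, the FoxO factor best known for driving the gluconeogenic genes of the fasted liver, was high in 1 group. AAKO fasted livers ran from 4.13 through a median of 4.23 to 4.32 and CTRL fasted livers from 2.52 through 2.78 to 4.00. The ranges did not overlap, although CTRL fasted replicate 2, at 4.00, came close and the other 5 CTRL arrays stayed at or below 3.30. AAKO was 1.22 ± 0.16 higher, or 2.33-fold (limma adjusted p = 1.32e-07), and 1.42 higher without that replicate. Within wash batch 1 the difference was 1.55 (limma adjusted p = 5.10e-07) and within wash batch 2, which holds replicate 2, it was 0.89 (limma adjusted p = 0.0174).

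Fasting raised Foxo1 by 1.32 ± 0.16 in AAKO (limma adjusted p = 1.05e-08), and in CTRL the difference was 0.05 ± 0.16 (adjusted p = 0.83), with a sign that turned in 5 alternative settings. The genotype by fasting interaction was 1.27 ± 0.22 (limma adjusted p = 4.37e-05); it passed within wash batch 1 (1.70) and not within wash batch 2 (0.85, adjusted p = 0.139). After CL316243 the genotypes differed by -0.39 ± 0.16, which missed the threshold (adjusted p = 0.0719) but passed in the authors' table (-0.47, adjusted p = 0.0258), without CTRL fasted replicate 2 (-0.40, adjusted p = 0.00898) and with only the groups compared (-0.41, adjusted p = 0.0415). The wash batches were unequal, at -0.62 in batch 1 (limma adjusted p = 0.00406) and -0.11 in batch 2 (limma adjusted p = 0.87). Fasting against CL316243 gave 1.71 ± 0.16 in AAKO (limma adjusted p = 7.74e-11). The genotype difference differed between those states by 1.61 ± 0.22 (limma adjusted p = 2.03e-06). The second Foxo1 probe gave a fasted genotype difference of 1.06.

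Foxo3, a related factor, showed the same contrast between fasted genotypes at all 3 probes, with very different sizes. At the brightest, CTRL fasted livers ran from -1.31 through a median of -0.63 to -0.10 and AAKO fasted livers from 0.16 through 0.43 to 1.23, a difference of 1.18 ± 0.18 without overlap (limma adjusted p = 1.42e-06). At A_55_P2735425, the probe nearest the 5′ end, CTRL fasted livers ran from -3.84 through -3.20 to -1.37 and AAKO fasted livers from 0.31 through 0.74 to 0.94. There the difference was 3.66 ± 0.28, or 12.6-fold (limma adjusted p = 3.88e-12 over probes). At A_55_P2506540 it was 2.90 ± 0.21, or 7.47-fold (limma adjusted p = 1.38e-12). Both exceeded the brightest probe on the same arrays, by 2.47 and 1.72 (exact permutation tests, two-sided, p = 0.0022 each, adjusted p = 0.013).

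Whether fasting changed Foxo3 in CTRL depended on the probe. At the brightest it fell by 0.81 ± 0.18 in CTRL (limma adjusted p = 0.00035) and rose by 0.45 ± 0.18 in AAKO (limma adjusted p = 0.0253). At A_55_P2735425 CTRL gave 0.11 ± 0.28 (adjusted p = 0.79) and AAKO rose by 3.75 ± 0.28 (limma adjusted p = 3.43e-13). With the mean of the 3 probes the CTRL fall was -0.33 (adjusted p = 0.18). The genotype by fasting interaction was called at every probe, 1.26 ± 0.25 at the brightest (limma adjusted p = 0.000185), 3.08 and 3.64 at the others. With CL316243, Foxo3 was 0.48 ± 0.18 lower in AAKO at the brightest probe (limma adjusted p = 0.0463), which ended with normexp correction (0.0538), without the filter (0.074), with slide as a factor (0.0692), with only these groups in the fit (0.079), without CTRL fed replicate 4 (0.0511) and with the mean of probes (-0.19, 0.52). A_55_P2735425 had the opposite order after CL316243, with means of -3.23 in AAKO and -3.44 in CTRL. A_55_P2506540 averaged -2.62 in AAKO and -2.31 in CTRL. Within arrays, the difference of A_55_P2735425 from the brightest probe was unequal between genotypes by 0.68 (exact permutation test, two-sided, p = 0.0043, adjusted p = 0.022). Against fed mice Foxo3 fell by 0.55 ± 0.18 in AAKO after CL316243 (limma adjusted p = 0.0176), at the brightest probe only. With the mean of probes this was -0.33 (adjusted p = 0.20).

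At the brightest probe, Foxo3 fasted minus CL316243 was -0.66 ± 0.18 in CTRL (limma adjusted p = 0.00334) and 1.00 ± 0.18 in AAKO (limma adjusted p = 1.21e-05). The CTRL difference was not called at A_55_P2735425 (0.49) or A_55_P2506540 (-0.15), nor with the mean of probes (-0.11, adjusted p = 0.72), whereas the AAKO difference was called at both (3.94 and 3.06). The genotype difference differed between these states at the brightest probe by 1.66 ± 0.25 (limma adjusted p = 6.12e-06), and within each wash batch it was called, at 2.05 and 1.18. Neutrophil markers were also higher in AAKO fasted livers, 3 of 4 called (21.3% of all genes were called higher there) with a median of 3.49. Their summed signal was 6.27 to 83.8 times the 75th percentile in AAKO fasted livers and 0.898 to 54.1 times in CTRL fasted livers. Their part in the Foxo1 and Foxo3 results was not tested. Genes that followed Foxo1 most closely were a transcript named only by its accession (Pearson r = 0.93, Spearman rho = 0.58), Dclre1b (0.92) and Rbbp8 (0.92), the last of these a DNA end resection gene.

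**Figure D3:**
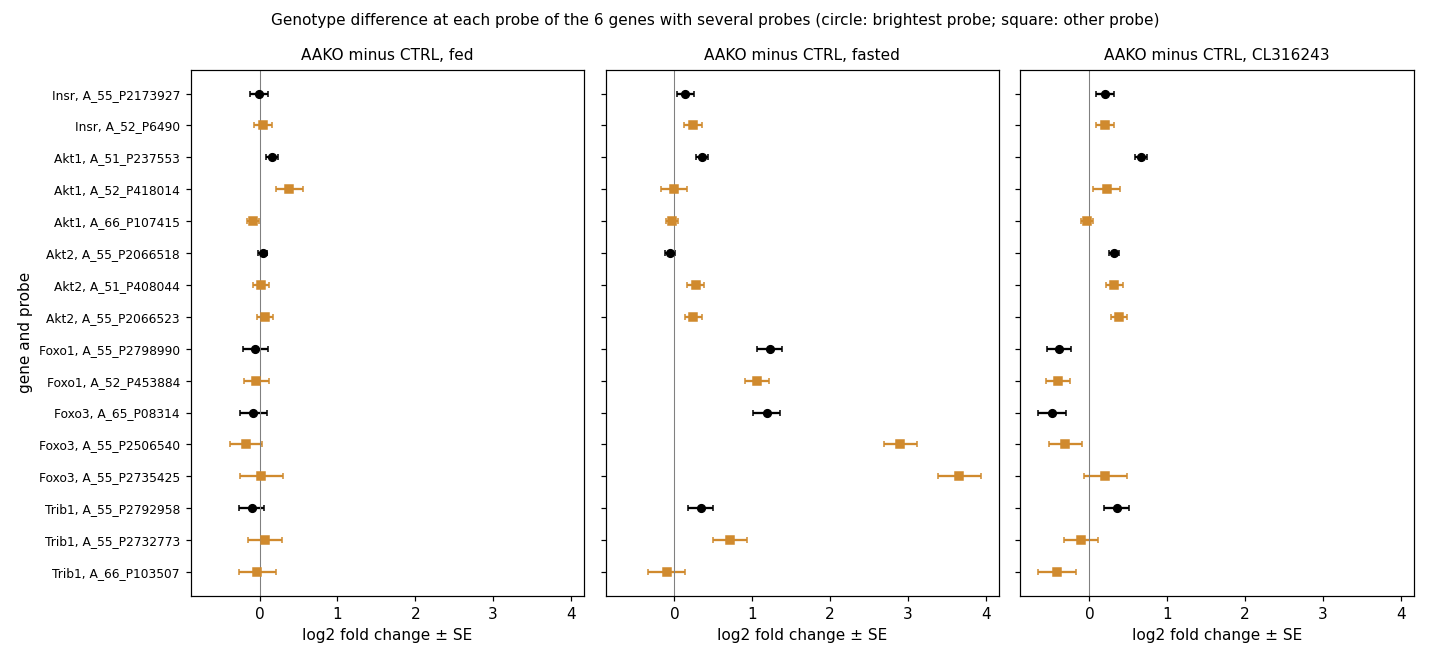
AAKO minus CTRL log2 fold change with its standard error at each probe of the 6 genes that have several probes, for fed (left), fasted (middle) and CL316243 (right) livers; circles are the brightest probe and squares the others. In the fasted panel the 3 Foxo3 probes lie at 1.18, 2.90 and 3.66, and the Foxo1 probes at 1.22 and 1.06.

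Foxa2, a forkhead factor of hepatocytes that is also under insulin control, was called in 0 of the 12 comparisons. Its group means lay between 2.72 ± 0.23 in AAKO fasted and 3.40 ± 0.47 in CTRL CL316243 livers, and the within-group ranges were wide, from 2.52 through 2.86 to 4.21 in CTRL fed livers. AAKO minus CTRL was -0.27 ± 0.28 fasted and -0.53 ± 0.28 with CL316243 (adjusted p = 0.17), and CL316243 against fed gave 0.39 ± 0.28 in CTRL. With standard errors of this size, differences of the order seen for Akt2 could not be resolved.

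Trib1 encodes a pseudokinase that restrains lipogenesis in liver. It was called in 1 comparison, a rise of 0.55 ± 0.16 with CL316243 in AAKO (limma adjusted p = 0.00923), from a range of 2.30 to 2.71 fed to 2.74 to 3.42 treated, without overlap. The mean of its 3 probes gave 0.18 (adjusted p = 0.44). AAKO minus CTRL was 0.34 ± 0.16 fasted (adjusted p = 0.0836, or 0.0259 with slide as a factor) and 0.35 ± 0.16 with CL316243 (adjusted p = 0.12) at the brightest probe. Probe A_55_P2732773 gave 0.71 ± 0.22 fasted (limma adjusted p = 0.0082 over probes) and -0.11 with CL316243. The last probe, A_66_P103507, lies on the opposite strand to the other Trib1 probes and was above background on 34 of 36 arrays. It enters the mean of the 3 probes. In AAKO its mean moved from -4.81 fed to -5.29 with CL316243, while that of A_55_P2732773 moved from 1.19 to 1.61.

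**Figure D4:**
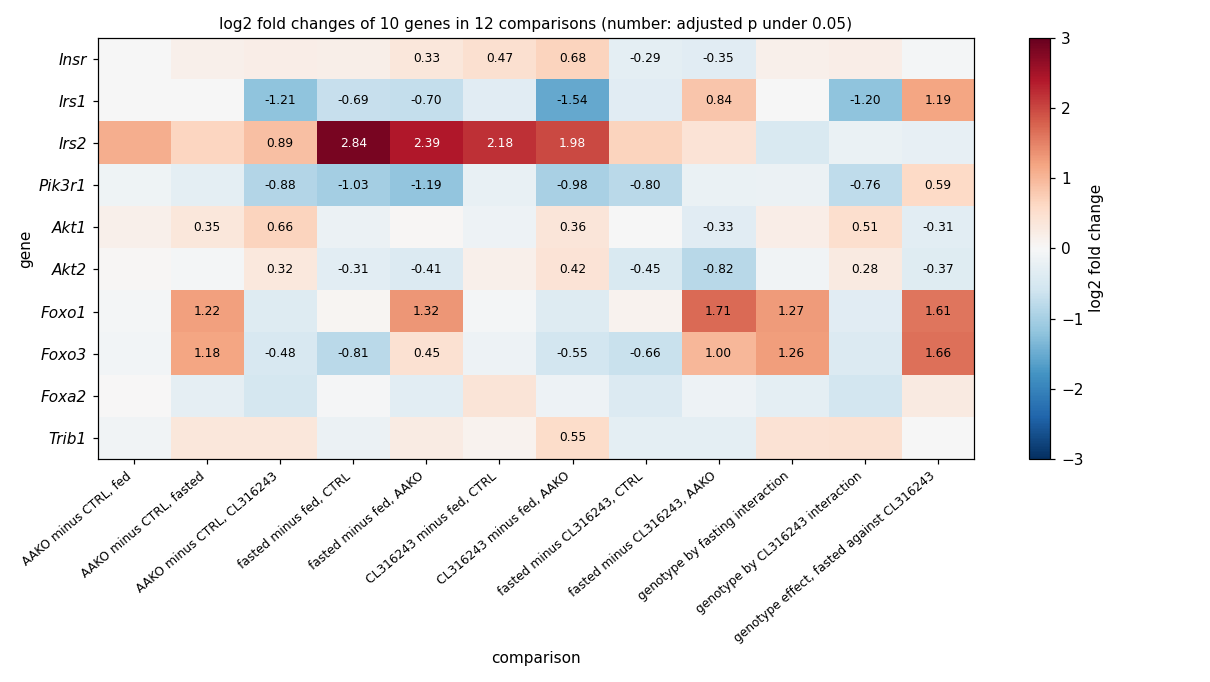
Log2 fold change of the 10 genes (rows) in 12 comparisons (columns), by colour from -3 to 3; a number is printed where the adjusted p was under 0.05. Irs2 rises in all 4 comparisons with fed mice, from 1.98 to 2.84, and Foxa2 has no number.

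Each of the 10 genes was counted by its brightest probe, so the limits given above for other probes hold for these counts. Between genotypes in the fed state 0 were called, where 0.0783% of all genes were called (0.0412% higher, 0.0371% lower). There 1 member, Irs2, had an unadjusted limma p under 0.05. Fasted, 3 were higher in AAKO and 0 lower (Akt1, Foxo1 and Foxo3), below the 49.3% of all genes called (21.3% higher, 28.0% lower). With CL316243, 6 were called against 24.7% of all genes (13.4% higher, 11.3% lower), 3 of them higher (Irs2, Akt1 and Akt2) and 3 lower (Irs1, Pik3r1 and Foxo3).

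Fasting against feeding called 5 of 10 in CTRL (43.3% of all genes; 20.9% higher, 22.4% lower), Irs2 higher and Irs1, Pik3r1, Akt2 and Foxo3 lower, and 7 of 10 in AAKO (63.5%; 27.8% higher, 35.7% lower), with Insr, Irs2, Foxo1 and Foxo3 higher and Irs1, Pik3r1 and Akt2 lower. Both counts are near those backgrounds. CL316243 against feeding called 2 of 10 in CTRL (23.3%; 10.4% higher, 12.8% lower), Insr and Irs2, both higher. In AAKO it called 8 of 10 (31.4%; 15.7% in each direction), 5 higher and 3 lower. Fasting against CL316243 called 4 of 10 in CTRL (36.8%; 19.2% higher, 17.6% lower), all lower when fasted, and 6 of 10 in AAKO (59.9%; 26.2% higher, 33.8% lower), 3 each way. The genotype by fasting interaction called 2, both positive (33.9% of all genes; 14.5% higher, 19.4% lower). The genotype by CL316243 interaction called 4, 2 each way (10.9%; 6.34% higher, 4.52% lower). The difference of genotype effects between fasting and CL316243 called 6 (32.3%; 12.7% higher, 19.6% lower), among them Akt1 (-0.31 ± 0.11, limma adjusted p = 0.0273) and Akt2 (-0.37 ± 0.08, limma adjusted p = 0.000794). The CL316243 interaction of Akt1 was 0.51 ± 0.11 (limma adjusted p = 0.00205), and in AAKO mice Akt1 was 0.33 ± 0.08 lower fasted than after CL316243 (limma adjusted p = 0.000439), which missed the threshold in the authors' table (-0.18, adjusted p = 0.0512). With the mean of probes both Akt1 interactions were lost, and so was the Akt2 difference between fasting and CL316243 (-0.19, adjusted p = 0.21). That difference for Akt1 was also lost with quantile normalization (adjusted p = 0.0831), the authors' table (-0.20, adjusted p = 0.167), slide as a factor (0.0762) and only the groups compared (0.0535).

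Other genes of the pathway were followed through a list of 51, of which 49 were tested. Fasted, 30 of the 49 differed between genotypes (61.2%, against 49.3% of all genes), 16 higher in AAKO and 14 lower, with a median of 0.05 against -0.04 over all genes. Grb10, an adaptor that binds and inhibits the insulin receptor, was 2.13 ± 0.23 higher, and Sh2b2, another receptor adaptor, 1.81 ± 0.23 higher. Pik3r3, a further PI3K regulatory subunit, was 1.82 ± 0.21 lower on the log2 scale, and Sos1, the Ras exchange factor downstream of Grb2, 1.07 ± 0.15 lower. Pik3r3 was dim in AAKO fasted livers, with a mean of -5.08 ± 0.66, so the size of its differences from that group is less certain.

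With CL316243, 19 of the 49 differed between genotypes (38.8%, against 24.7% of all genes), 9 higher in AAKO and 10 lower (median -0.05 against 0.03 over all genes). Socs3, a feedback inhibitor of receptor signalling, was 1.69 ± 0.50 higher, and Phlpp1, a phosphatase that acts on AKT, was 0.82 ± 0.12 lower. Fasting changed 24 of 49 in CTRL (49.0%, against 43.3% of all genes), 13 higher and 11 lower. There Trib3, a pseudokinase that binds AKT, rose by 2.07 ± 0.32, Inpp5k, a phosphoinositide phosphatase, rose by 1.11 ± 0.08, Pik3r3 fell by 1.35 ± 0.21 and Foxa3 fell by 1.28 ± 0.22. In AAKO 36 of 49 changed (73.5%, against 63.5%), 19 higher and 17 lower. There Trib3 rose by 2.69 ± 0.32 and Grb10 by 1.64 ± 0.23. Pik3r3, dim in these fasted livers, fell by 2.91 ± 0.21, and Ptprf, a receptor tyrosine phosphatase, fell by 1.98 ± 0.15.

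Known FoxO targets moved in both directions. Of 22, fasting changed 17 in CTRL (77.3%, against 43.3% of all genes), 11 higher and 6 lower, with a median of 0.57 against -0.02 over all genes. In AAKO it changed 21 (95.5%, against 63.5%), 15 higher and 6 lower, with a median of 1.097 against -0.09. In CTRL Igfbp1 rose by 4.79 ± 0.58 and Cdkn1a, a cell cycle inhibitor, by 3.98 ± 0.40, while Bcl6, a transcriptional repressor, fell by 2.39 ± 0.54. In AAKO Cdkn1a rose by 6.17 ± 0.40 and Gadd45b by 4.60 ± 0.32, while Bcl6 fell by 2.99 ± 0.54 and Cat by 1.55 ± 0.09. Between fasted genotypes 15 of 22 differed (68.2%, against 49.3% of all genes), 10 higher in AAKO and 5 lower (median 0.57 against -0.04). The stress-response gene Sesn1 was 3.69 ± 0.28 higher and Gadd45a 2.54 ± 0.41 higher, whereas Cat, which encodes catalase, was 1.42 ± 0.09 lower and Mttp, needed to load lipid onto apolipoprotein B, was 1.38 ± 0.09 lower.

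After CL316243, 8 of the 22 targets differed between genotypes (36.4%, against 24.7% of all genes), 3 higher in AAKO and 5 lower (median 0.06 against 0.03 over all genes). Igfbp1 was 2.32 ± 0.59 higher in AAKO and Txnip, an inhibitor of thioredoxin, 1.37 ± 0.25 lower. Pnpla2, itself a FoxO target and the gene missing from AAKO adipose tissue, was 0.66 ± 0.19 higher in AAKO liver. Its liver level does not check the adipose deletion.

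Of the genes that insulin is known to induce in liver, all 8 of the list fell with fasting in CTRL (median -2.08) and all 8 in AAKO (median -2.50), where 22.4% and 35.7% of all genes were called lower. Thrsp, a lipogenic gene, fell by 4.62 ± 0.40 in CTRL, and Srebf1, a transcription factor of lipogenesis, fell by 2.68 ± 0.19 in AAKO. With CL316243 against feeding, 6 were called in CTRL (1 higher, 5 lower, where 23.3% of all genes were called) and 5 in AAKO (0 higher, 5 lower, where 31.4% were called). Between genotypes after CL316243, 3 were lower in AAKO and 0 higher (37.5% called, against 24.7% of all genes), among them Acaca at 0.84 ± 0.17 and Elovl6 at 0.78 ± 0.24 lower; fasted, 3 were higher, with Thrsp at 2.18 ± 0.40, and 2 lower (62.5% called, against 49.3%).

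Few pairs of members were correlated within groups. Over 36 arrays with group means removed, 45 pairs were correlated, and Irs1 with Akt1 was the pair for which both measures passed Benjamini-Hochberg adjustment (Pearson r = -0.56, adjusted permutation p = 0.0216; Spearman rho = -0.589, adjusted permutation p = 0.0207). It was -0.561 without the 2 arrays farthest from the median of Irs1, -0.457 within wash batch 1 and -0.699 within wash batch 2. Pik3r1 with Foxo1 passed for Pearson r (0.582, adjusted permutation p = 0.0286) and not for Spearman rho (0.389, adjusted permutation p = 0.242), and r was 0.392 without the 2 farthest arrays.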

How the data were processed

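Per the file headers, the authors' scanner files hold spot intensity from Agilent Feature Extraction 10.10.1.1 for array design 074809, background-subtracted and detrended by that software; limma is also named in the submitters' processing notes. The deposited value table gives log2 values of 36898 probes with no normalization named. Each of its 36 columns matched its own array best (r 0.99881 to 0.99981). Columns of a group held identical sorted values, and column medians ran from 6.88 in AAKO CL316243 to 7.01 in AAKO fasted. The values were thus set to 1 distribution within each group and not across groups. Spread within groups may be altered there, which limits every call taken from the authors' table. The scale and direction are known, and the probe filter and any centring are not.

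Here, log2 of the processed intensity was taken minus the log2 75th percentile of each array. Outlying spots (2701, 0.127%) were dropped, no spot was saturated, and spots of 1 probe were averaged. Through RefSeq accessions 32994 of 56605 probes were named (1535 symbols changed, none of a member), and the brightest probe stood for each gene. Genes were tested if well above background on 5 of 6 arrays of a group. limma 3.58.1 in R 4.3.3 fitted 6 group means and the wash batch, with eBayes and Benjamini-Hochberg adjustment, after a check on simulated data. Tests were two-sided. Nothing in the labels says more of the mice than 1 array per sample, so p-values measure the spread between these samples. Probe tests used 36550 probes, and probe pairs and correlations used permutation (100000 resamples for correlations).

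All 10 members are named; from each list the 2 most changed genes each way qualify for naming in the fasted and CL316243 genotype contrasts and in fasting (1 such gene is not reported here), and 3 genes most like a member for the 4 members of widest span. Alternatives were normexp correction, quantile normalization, the authors' table, no filter, the mean of a gene's probes, slide as a factor or random block, no batch term, each wash batch alone, a replicate block, only the groups compared, and 4 arrays left out in turn. The members and lists were chosen with earlier results of these data known. The number of arrays limits the precision.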

Additional observations from a re-analysis of the deposited data

Results flagged for a closer look

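In 60 groups of 6 arrays (10 genes in 6 groups), 4 held an array whose gap to its nearest neighbour was large for the range of the group; chance flags about 1 in 20 groups. These were Pik3r1 in AAKO CL316243 replicate 1, low at 0.0962, Akt1 in CTRL fed replicate 4, low at 3.35, Foxo1 in CTRL fed replicate 1, low at 2.64, and Foxa2 in CTRL fed replicate 4, high at 4.21. CTRL fed replicate 4 was thus low for Akt1 and high for Foxa2.

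At the brightest probe of each gene, the genotype difference itself differed between conditions, by a limma interaction term, in 12 cases. Between CL316243 and fed mice the differences were -1.20 for Irs1, -0.76 for Pik3r1, 0.51 for Akt1 and 0.28 for Akt2. Between fasted and fed mice they were 1.27 for Foxo1 and 1.26 for Foxo3. Between fasted and CL316243 mice they were 1.19 for Irs1, 0.59 for Pik3r1, -0.31 for Akt1, -0.37 for Akt2, 1.61 for Foxo1 and 1.66 for Foxo3.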

How the results depend on the processing

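Of 53 called member results, 0 reversed under the 16 alternatives, and 37 kept their call in every one outside the single wash batches. The sign of an uncalled result turned in 63 of the combinations of the 67 uncalled results with these alternatives; those printed above were picked after their values were seen. Of these, Foxo1 fasted minus fed in CTRL became -0.025 with the mean of probes, -0.0074 with slide as a factor and -0.34 in wash batch 1. In wash batch 2 the same difference was 0.43, and neither batch passed the threshold. With arrays left out, it ran from -0.15 without CTRL fasted replicate 2 to 0.0719 without CTRL fed replicate 4 (-0.02 when its replicate 1 was left out). With the mean of probes, Trib1 AAKO minus CTRL with CL316243 became -0.0587 and Akt1 CL316243 minus fed in CTRL became 0.30. Irs2 in the CL316243 interaction became 0.36 in wash batch 1. The cause was not tested.

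Within 1 wash batch a group has 2 to 4 arrays, and most but not all counts of called members fell. The fasting interaction rose to 3 in wash batch 1 and AAKO minus CTRL fasted rose to 4 in wash batch 2; CL316243 minus fed and fasted minus CL316243 in AAKO stayed at 8 and 6 in wash batch 1. In wash batch 1, members called were 1 for CL316243 minus fed in CTRL, 3 for fasted against CL316243, and 0 for the CL316243 interaction, where 6 had an unadjusted limma p under 0.05. In wash batch 2 they were 1 for AAKO minus CTRL with CL316243, 1 and 3 for CL316243 minus fed in CTRL and AAKO, 2 and 3 for fasted minus CL316243 in CTRL and AAKO, 1 for the fasting interaction, 2 for fasted against CL316243, and 0 for the CL316243 interaction, where 3 had an unadjusted limma p under 0.05. The mean of probes left 2 in that interaction. Of the insulin-induced list, genotype calls when fasted fell to 3 with normexp and with the mean of probes. Over all genes, the 19 fed genotype calls became 3 with only those groups in the fit, 36 without replicate 4 of CTRL fed and 9 when its replicate 1 was left out.

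A replicate block gave 120 of 120 member results the same call and ended that of Socs1 (1.62, adjusted p = 0.06). Same-numbered arrays did not deviate together (mean r -0.0011 over 90 pairs). A pairing that leaves no shared deviation would not be seen this way, so what the numbers denote is not known. The random slide block had a correlation of -0.00981. With normexp the median of all genes moved to -0.12 for fasted minus fed and -0.15 for fasted minus CL316243 in AAKO. Leaving out AAKO CL316243 replicate 1 or CTRL fed replicate 1 or 4 was chosen after seeing the data, as were the within-array probe comparisons.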
